A study of Mus musculus with 3 samples.

Results

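The 9 genes Cdkn1a, Cdkn1b, Cdkn2a, Trp53, Mdm2, Ccng1, Gdf15, Bax and Phlda3 were chosen by symbol from the 27998 genes of the deposited matrices as p53 targets and cell cycle arrest genes. Each symbol matched 1 feature. Kidneys were taken from folic acid (FA)-treated mice, labelled 6-8 weeks old, on day 14 of the FA model and profiled by droplet single-cell RNA-seq. The 3 libraries were Aoah-/- replicates 2 and 3 and WT replicate 3. Aoah-/- mice lack acyloxyacyl hydrolase in every cell, WT mice were littermates from heterozygous breeders, and both groups received FA, so an untreated kidney was not compared here. From the numbers of mice given for the groups, each library was of 1 mouse.

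The transcription factor p53, made by Trp53, is stabilized by DNA damage and other stress and switches on genes that halt the cell cycle, repair DNA or start apoptosis. Mdm2 marks p53 for degradation and is itself a p53 target, which closes a feedback loop. In the kidney, tubule cells that stay arrested after acute injury are a known companion of failed repair, and Cdkn1a (p21) is the gene most often measured for it.

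After filtering, 59262 cells remained, 18202 to 21368 a library, with a median of 3357 to 3859 UMIs a cell. Clusters were named from marker genes, and a name such as PT S1-S2 (proximal tubule, segments S1 and S2) means cells like that type. There were 21 named classes, 9 of them of the nephron, with 43065 cells. Aoah itself was at 6.75 and 6.19 CPM (UMIs per 1000000 UMIs of the cells summed) in the Aoah-/- libraries and 18.2 CPM in WT. Libraries shared 109 to 117 cell barcodes with each other, at most 0.621% of a library.

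Injured PT was a class of 644 cells, 180, 341 and 123 in Aoah-/- 2, Aoah-/- 3 and WT 3. Its leading genes were Ccl2, Hspb1, Cp, Mgp and Vcam1. The injury marker Vcam1 was at 698 to 827 CPM against 3.21 to 6.99 CPM in PT S1-S2, and Havcr1 (KIM-1) at 142 to 172 CPM against 0.762 to 1.71 CPM. The proximal marker Slc34a1 remained at 889 to 1167 CPM, compared with 424 to 497 CPM in macrophages, which should lack it. A separate class of 1892 cells with Lcn2 at 1593 to 2541 CPM and little Slc34a1 was called injured tubule, not proximal. PT S1-S2 had 9723 cells in subclusters s0 (4946 cells), led by immediate early genes such as Fosb, Dusp1, Klf4 and Jun, and s5 (4777 cells). PT S3 had 2081 cells.

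The promoters of 3 members, Cdkn1a, Ccng1 and Bax, held a match to the consensus of a p53 binding site. In subcluster s0, Ccng1 was past 1.5-fold higher in cells chosen for a Cdkn1a UMI, in all 3 libraries. It did not pass in s5, in S3 subcluster s1 or in injured PT, and Bax passed in none of these. Gdf15 and Phlda3 also passed in s0, and their promoters held no match. Whether the sites bear on these levels was not tested. A full site was taken as a pair of half-sites of 10 bases, up to 13 bases apart, each with its fixed C and G and with at most 2 mismatches in all. The motif reads alike on both strands. In the 250 bases before the start of 32851 promoters (RefSeq, GRCm38.p6), 3.34% held a full site and 7.13% an exact half-site. Of the 12 promoters of the 9 members, 3 held a full site and 5 an exact half-site. Each of the 3 windows with a full site held 2 pairs that met the rule. Capitals mark the pair with the fewest mismatches, the first if these were equal. Each sequence runs 5′ to 3′ toward the start. The unmarked Cdkn1a pair joined GAACATGTCT to the tgacatgttc right after it.
Cdkn1a: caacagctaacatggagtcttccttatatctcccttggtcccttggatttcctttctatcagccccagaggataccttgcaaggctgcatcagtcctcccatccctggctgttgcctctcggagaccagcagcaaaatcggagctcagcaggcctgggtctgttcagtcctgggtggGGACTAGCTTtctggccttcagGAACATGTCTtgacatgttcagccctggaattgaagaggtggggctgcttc
Ccng1: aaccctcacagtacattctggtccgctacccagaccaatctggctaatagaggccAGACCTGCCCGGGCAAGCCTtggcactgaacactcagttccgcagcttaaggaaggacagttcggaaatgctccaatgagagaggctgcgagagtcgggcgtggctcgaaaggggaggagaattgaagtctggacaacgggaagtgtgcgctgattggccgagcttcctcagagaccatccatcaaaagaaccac
Bax: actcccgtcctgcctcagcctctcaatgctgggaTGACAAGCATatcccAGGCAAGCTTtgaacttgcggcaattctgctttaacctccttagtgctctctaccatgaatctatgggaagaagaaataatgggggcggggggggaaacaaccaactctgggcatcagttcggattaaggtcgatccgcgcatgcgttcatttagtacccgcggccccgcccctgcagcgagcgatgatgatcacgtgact
The Cdkn1a window was the first of its 2 promoters, chr17:29090729-29090978 on the plus strand, and its match had 0 mismatches and a spacer of 12 bases, 73 to 42 bases before the start. The Ccng1 window, chr11:40755287-40755536 on the minus strand, held a match with 1 mismatch and no spacer, 195 to 176 bases before the start. The Bax window, chr7:45466899-45467148 on the minus strand, held a match with 2 mismatches and a spacer of 5 bases, 216 to 192 bases before the start. Trp53 and Mdm2 each held an exact half-site alone. These letters were not found in the windows of Cdkn1b, Cdkn2a, Gdf15 and Phlda3 or in the second Cdkn1a promoter.

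Cdkn1a encodes p21, which blocks cyclin-dependent kinases. In PT S1-S2 it was at 10.9, 17.8 and 8.93 CPM in Aoah-/- 2, Aoah-/- 3 and WT 3, and in PT S3 at 6.71, 8.18 and 5.36 CPM. PT S3 and PT S1-S2 were the lowest of the 21 classes. In injured PT it was at 105 CPM (95% exact Poisson interval 91.4 to 119), 74.6 CPM (65.7 to 84.4) and 178 CPM (158 to 200). These intervals cover counting error only. Every injured PT value lay above every PT S1-S2 value, and the log2 ratio of CPM + 1 was 3.11 ± 1.08 (SD, n = 3 libraries). Outside the proximal tubule it reached 178 to 206 CPM in the injured tubule class, 158 to 192 CPM in intercalated A cells and 115 to 121 CPM in intercalated B cells. Thick ascending limb, distal convoluted tubule and principal cells had 12.8 to 58.2 CPM. The highest levels were in monocytes (461 CPM ± 37.5, SD, n = 3) and macrophages (421 CPM ± 20.3), whose library ranges overlapped.

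**Figure D1:**
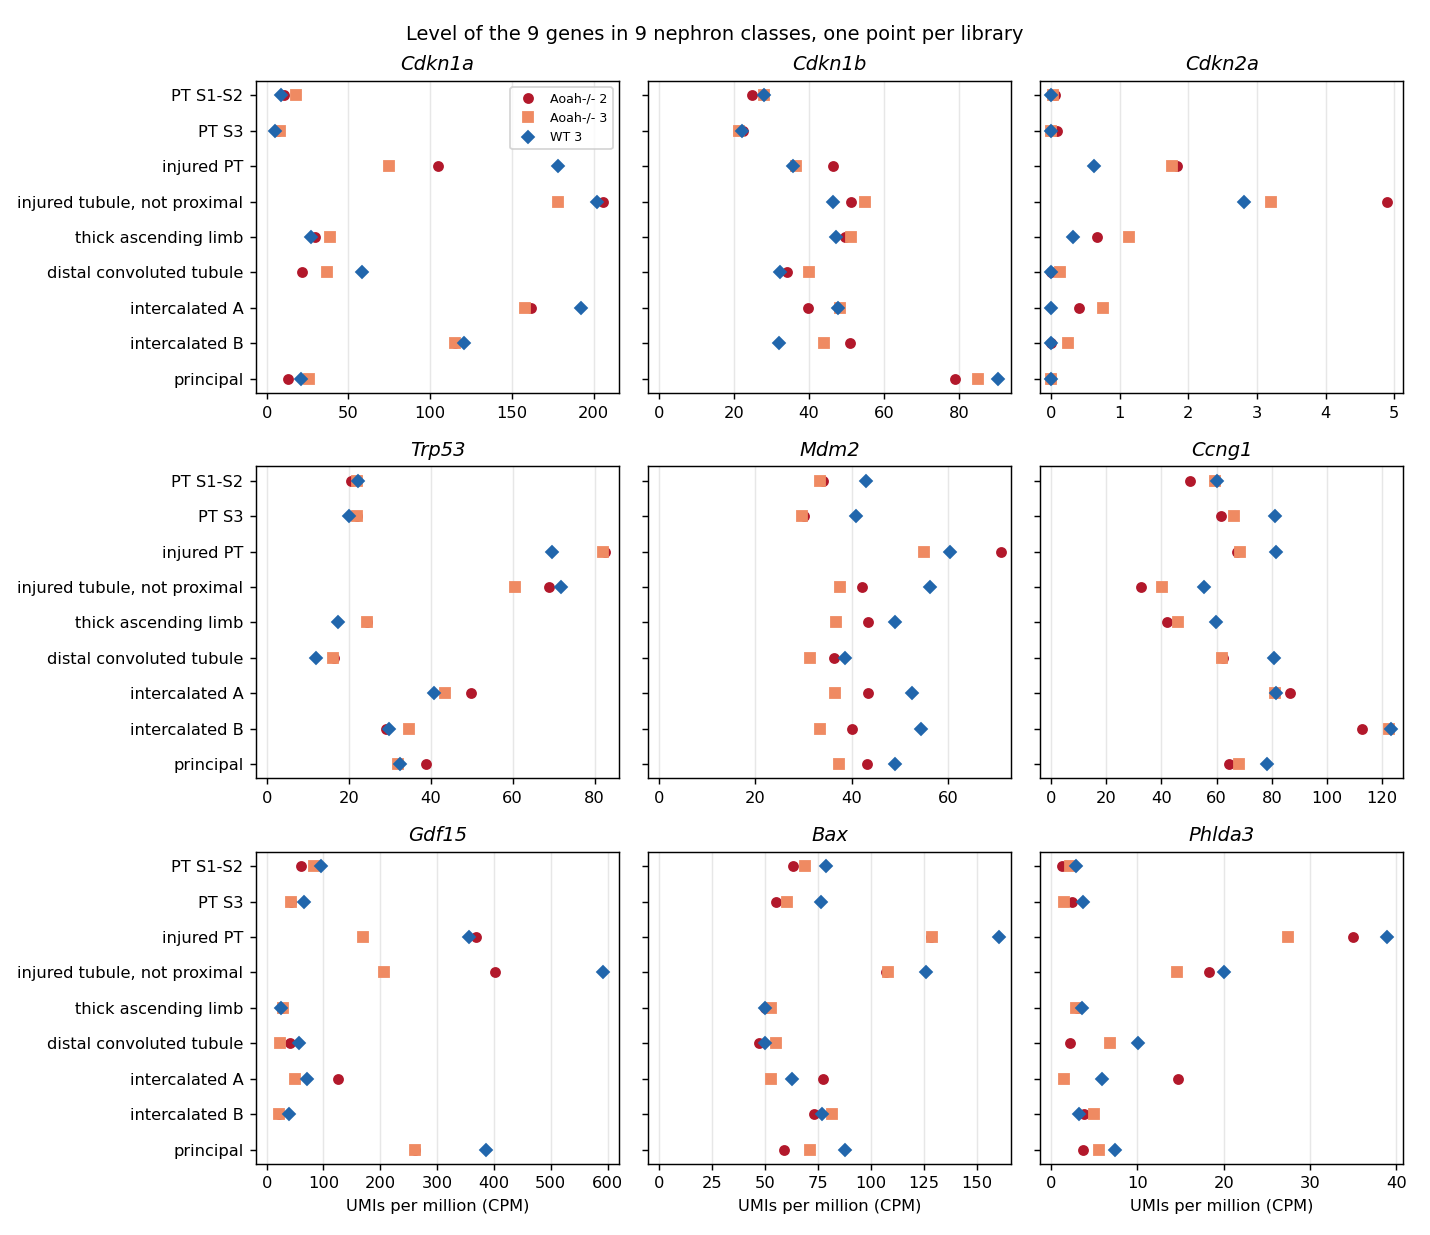
Summed UMIs as CPM (x axis, linear, a separate scale for each gene) of the 9 genes in 9 nephron classes (y axis), with 1 point per library. Cdkn1a, Trp53, Gdf15, Bax and Phlda3 were past 1.5-fold higher in injured PT than in PT S1-S2 in all 3 libraries. Mdm2, Cdkn1b and Ccng1 were higher in all 3 as well, but not past 1.5-fold in each. Cdkn2a stayed below 5 CPM in every nephron class.

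The Cdkn1a UMIs were unevenly spread over cells. In injured PT, 56, 84 and 49 cells had a UMI, and the 5 cells with the most held 47.6%, 28.1% and 45.4% of the UMIs in Aoah-/- 2, Aoah-/- 3 and WT 3. Without those cells the level was 57.8, 54.8 and 105 CPM. The gene lies at chr17:29090976-29100727 (GRCm38), and an annotated antisense transcript, AC167363.2, overlaps its exons. After thinning each cell to 1000 UMIs, which left out 6 cells, 6.21% (95% Clopper-Pearson interval 3.14 to 10.8%), 6.45% (4.09 to 9.61%) and 9.17% (4.67 to 15.8%) of injured PT cells had a Cdkn1a UMI. Unthinned, the shares were 31.1%, 24.6% and 39.8%. In PT S1-S2 the thinned shares were 0.760%, 1.12% and 0.671%. In erythroid cells, taken as a rough reference for free RNA, they were 0.917%, 5.83% and 0.797%. Median depths of the thinned cells were 7484 to 9148 UMIs in PT S1-S2 and 2579 to 5953 UMIs in erythroid cells. The PT S1-S2 share exceeded the erythroid one in no library, so by the share alone it did not lie above that reference. In Aoah-/- 3 it was below it, with an interval of 0.739 to 1.62% against 4.25 to 7.78%. Erythroid cells are a rough reference, since Kap and Atp6v1g3, genes of tubule cells, were among their leading genes. Whether erythroid cells make Cdkn1a themselves was not tested, so free RNA cannot be told apart from their own. The PT S1-S2 UMIs were not evenly spread either, as 5 cells held 25.8%, 44.1% and 33.5% of them. The injured PT share exceeded the erythroid one in all 3 libraries, although the intervals overlapped in Aoah-/- 3 (erythroid interval 4.25 to 7.78%) and in Aoah-/- 2 (0.0232 to 5.01%).

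Trp53 was at 20.7, 22.2 and 22.3 CPM in PT S1-S2 and at 82.5, 82.0 and 69.7 CPM in injured PT, a log2 ratio of 1.80 ± 0.18 (SD, n = 3). Injured PT had the second highest mean of the 21 classes, after cycling cells, and the ranges of both overlapped. Mdm2 was at 34.0, 33.4 and 42.8 CPM in PT S1-S2 and 70.9, 54.8 and 60.3 CPM in injured PT. The groups did not overlap, but the log2 ratio of 0.74 ± 0.28 missed 1.5-fold in WT, where it was 0.48.

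Among the 9 members, Phlda3, an inhibitor of AKT signalling, had the largest mean ratio, although in WT Cdkn1a was above it (4.17 against 3.34). It was at 1.31, 2.27 and 2.94 CPM in PT S1-S2 and 35.0, 27.4 and 38.9 CPM in injured PT, a log2 ratio of 3.47 ± 0.44. Of nephron classes, injured PT was the highest, and across all classes urothelial cells (82.9 CPM ± 19.4) and fibroblasts (77.3 CPM ± 17.5) were above it without overlap. Gdf15, a secreted stress cytokine of the TGF-β family, was at 60.8, 82.7 and 96.3 CPM in PT S1-S2 and 368, 169 and 357 CPM in injured PT, a log2 ratio of 1.83 ± 0.78. It was as high in the other injured tubule class (401, 206 and 592 CPM) and in principal cells (261, 261 and 386 CPM), and the ranges of these 3 classes overlapped. A small PT S3 subcluster, s8 (19, 24 and 55 cells), was at 668, 98.0 and 346 CPM. The 5 injured PT cells with the most held 36.9%, 26.7% and 39.4% of the Gdf15 UMIs. Without them Gdf15 was at 243, 127 and 236 CPM. Bax, a pore-forming apoptosis protein, was at 63.4, 69.0 and 78.9 CPM in PT S1-S2 and 129, 129 and 161 CPM in injured PT, a log2 ratio of 0.97 ± 0.07. An overlapping annotated gene, Gm45808, lies on the same strand as Bax, and counting of shared reads was not checked.

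Ccng1 (cyclin G1) did not follow the others. It was at 50.3, 59.5 and 60.3 CPM in PT S1-S2 and 67.3, 68.4 and 81.6 CPM in injured PT, a log2 ratio of 0.35. Its highest level of the 21 classes was in intercalated B cells, at 113, 122 and 123 CPM, above intercalated A cells (81.2 to 86.7 CPM) without overlap. Cdkn1b (p27), a cyclin-dependent kinase inhibitor, had a log2 ratio of 0.53 in injured PT, and its nephron peak was in principal cells (78.9, 85.2 and 90.5 CPM).

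Cdkn2a makes p16 and p19ARF from separate first exons and shared later exons, and 3′ UMIs do not tell them apart. It was nearly absent from proximal cells, with 2, 1 and 0 UMIs in PT S1-S2 and 4, 6 and 1 UMIs in injured PT, and it did not pass the filter of 10 UMIs a library there. In the other injured tubule class it had 27, 24 and 13 UMIs (4.89, 3.20 and 2.81 CPM) against 0.666, 1.14 and 0.324 CPM in thick ascending limb, a log2 ratio of 1.44 ± 0.43. It passed the filter in that contrast only through the injured class, as thick ascending limb had under 10 UMIs in every library. The highest class was cycling cells, at 6.38, 12.4 and 11.2 CPM.

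**Figure D2:**
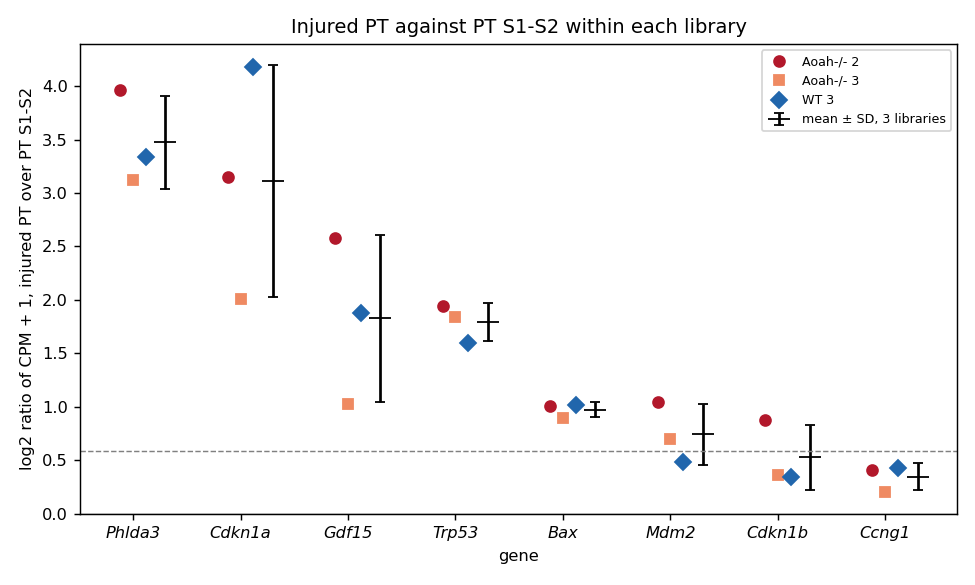
Log2 ratio of CPM + 1 in injured PT over PT S1-S2 (y axis) for the 8 genes that passed the filter (x axis), with 1 point per library, the mean ± SD of 3 libraries in black and 1.5-fold as a dashed line. Phlda3, Cdkn1a, Gdf15, Trp53 and Bax lay above the line in all 3 libraries.

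By the rule of 1.5-fold in every library, 5 of the 9 members were higher in injured PT than in PT S1-S2 and 0 were lower. Of 12962 genes that passed the filter, 29.3% were higher and 7.1% lower by the same rule, with a median log2 ratio of 0.39, so a call alone sets a member little apart. Of 24 other p53 targets, 14 were higher, and of 11 other arrest genes, 6. The target list included Epha2 (mean log2 ratio 3.63), Cd82 (3.46), Btg2 (3.26), Ephx1 (3.05), Bbc3 (2.66), Plk2 (2.38), Pmaip1 (2.25) and Gadd45a (2.24). Bbc3 and Pmaip1 encode the apoptosis activators PUMA and NOXA. The arrest genes were Gadd45b (5.31), Cdkn2b (3.74), Btg1 (1.91), Cdkn1c (1.60), Btg3 (1.49) and Rbl1 (1.16). Cdkn2b (p15) neighbours Cdkn2a in the genome. Of 12 regulators of p53, only the kinase Chek1 (2.06) and Trp53bp1 (0.97) passed. Median log2 ratios were 1.05 for the targets, 1.16 for the arrest genes and 0.46 for the regulators.

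Other signals moved with this contrast. The sum of 12 immediate early genes was 12327 to 13817 CPM in injured PT and 3759 to 5425 CPM in PT S1-S2, and mitochondrial UMIs were 102880 to 111190 and 216480 to 255360 CPM. The sum of 10 leukocyte genes was 234, 269 and 41.4 CPM in injured PT, with 1 gene at 0 in Aoah-/- 2 and in WT, against 43.2 to 117 CPM in PT S1-S2 and 20813 to 24340 CPM in macrophages. WT injured PT had the lowest leukocyte sum and the highest Cdkn1a of the 3. Cd74, which the study follows in proximal tubule, was at 1248 to 1717 CPM in injured PT. Cells with a UMI of Mki67 or Top2a, genes of cycling cells, were 8.89%, 17.9% and 4.07% of injured PT in Aoah-/- 2, Aoah-/- 3 and WT 3. In PT S1-S2 they were 1.30%, 2.61% and 1.95%. The part of these signals in the ratios was not tested.

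The same 5 members were higher in the other injured tubule class than in thick ascending limb, where 15.1% of 12263 genes were higher and 4.76% lower. Cdkn2a was higher as well, but it passed the filter only through the injured tubule class and is not counted with them. Gdf15 had the largest ratio, 3.72 ± 0.88 (SD, n = 3), followed by Cdkn1a at 2.59 ± 0.37 and Phlda3 at 2.15 ± 0.14. Mdm2 (0.06) and Ccng1 (-0.22) stood near 0. Between PT S3 and PT S1-S2, Cdkn1a alone passed, lower in S3 at -0.77 ± 0.23, where 7.03% of 12739 genes were lower and 2.08% higher. Without the 5 cells with the most UMIs in each class, the levels were 5.34, 5.70 and 3.47 CPM in S3 and 8.11, 9.98 and 5.95 CPM in S1-S2. Aoah-/- 2 was then within 1.5-fold, so the call did not hold. S1-S2 subcluster s5 alone was at 10.1, 5.55 and 5.34 CPM and S3 at 5.36 to 8.18 CPM, so these ranges overlapped.

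PT S1-S2 was not uniform. Gdf15 was at 114, 156 and 120 CPM in subcluster s0 and at 19.0, 19.8 and 20.3 CPM in s5, a log2 ratio of 2.65 ± 0.23. Mdm2 was at 48.7, 47.8 and 50.3 CPM against 22.5, 21.1 and 19.2 CPM (1.19 ± 0.14). Cdkn1b (1.00 ± 0.27) and Trp53 (0.77 ± 0.10) were also past 1.5-fold, and 26% of 12339 genes were higher and 1.74% lower in s0. Cdkn1a was at 11.9, 32.1 and 10.1 CPM in s0 and 10.1, 5.55 and 5.34 CPM in s5, a log2 ratio of 0.22, 2.34 and 0.80, so it missed 1.5-fold in Aoah-/- 2 alone. In Aoah-/- 3, 1 cell held 109 of the 411 UMIs of s0, and without the 5 cells with the most the s0 level was 15.6 CPM. Other signals moved with this contrast. The immediate early sum was 6979 to 8404 CPM in s0 and 493 to 736 CPM in s5, mitochondrial UMIs were 158810 to 183320 and 312280 to 323500 CPM, and the median depth was 9932.5 and 3459 UMIs a cell. Their part in it was not tested. Against s0, injured PT kept Cdkn1a (2.75 ± 1.44), Trp53 (1.51 ± 0.09), Bax (0.91 ± 0.04) and Phlda3 (3.13 ± 0.59) past 1.5-fold, where 25% of genes were higher and 10.3% lower. Gdf15 no longer passed, since its log2 ratio was 1.68 and 1.56 in Aoah-/- 2 and WT but 0.11 in Aoah-/- 3. Against s5, Cdkn1a, Cdkn1b, Trp53, Mdm2, Gdf15 and Bax were higher and Ccng1 was not past 1.5-fold, where 43.7% of genes were higher and 5.28% lower. Phlda3 was higher as well, but it had 18, 13 and 9 UMIs in s5. In WT it passed the filter of 10 UMIs only through injured PT, so it is not counted with them.

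**Figure D3:**
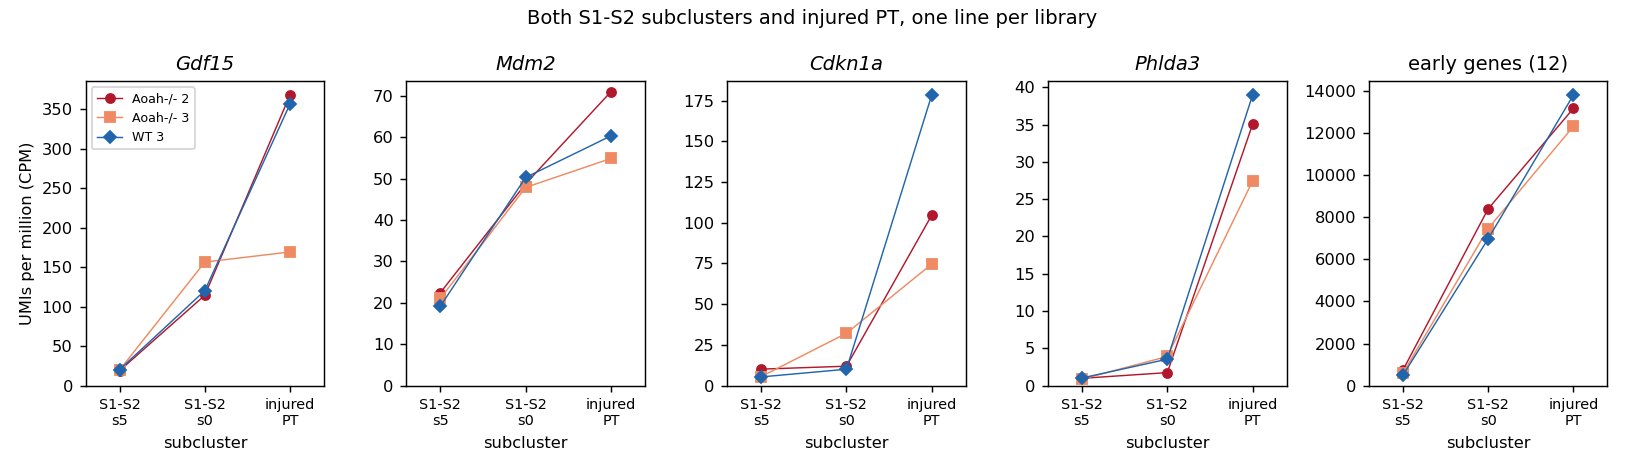
CPM (y axis, from 0, a separate scale per panel) of Gdf15, Mdm2, Cdkn1a and Phlda3 and the sum of 12 immediate early genes in S1-S2 subclusters s5 and s0 and in injured PT (x axis), with 1 line per library. Gdf15 and Mdm2 were already higher in s0 than in s5 in all 3 libraries, and Phlda3 stayed below 4 CPM in both and reached 27.4 to 38.9 CPM in injured PT.

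Members were then compared between cells with and without a Cdkn1a UMI inside 1 subcluster. In s0, 108, 99 and 112 cells had a UMI and 1320, 1037 and 2270 had none. Gdf15 was at 259, 386 and 331 CPM in cells with the UMI and 100, 127 and 107 CPM in cells without. Phlda3 was at 9.34, 16.6 and 16.1 CPM against 0.995, 2.29 and 2.74 CPM. Ccng1, which differed little between injured PT and PT S1-S2, was at 91.1, 106 and 120 CPM against 43.4, 58.4 and 59.2 CPM. In all 3 libraries these genes were higher in the cells with the UMI, with log2 ratios of 1.53 ± 0.14, 2.33 ± 0.12 and 0.97 ± 0.11 (SD, n = 3).

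Only 14 of 11684 genes (0.12%) were past 1.5-fold higher in every library in that split, and 0.565% were lower. Of these 14, 3 were members and 4 were other p53 targets, so 7 came from the lists and 7 did not. The 4 were Plk2 (2.03 ± 0.44), Ephx1 (1.97 ± 0.72), Btg2 (1.12 ± 0.41) and Bbc3 (1.01 ± 0.26), named here after their values were seen. No regulator or other arrest gene passed, and Mdm2, Bax, Trp53 and Cdkn1b did not. The immediate early sum was 8133, 8475 and 8334 CPM with and 8430, 7340 and 6892 CPM without the UMI. Cells with the UMI were deeper, with medians of 10820 to 13848 against 9169 to 10193 UMIs. Among cells at or above the median depth of the subcluster, the same 3 members passed with 0.117% of genes. Without the 10% highest doublet scores the same 3 passed with 0.112%. Of the 4 other targets, Btg2 did not pass at or above the median depth, nor did Bbc3 with mitochondrial UMIs limited to 20%. Leaving out cells with any UMI of 7 immune genes (Ptprc, Cd74, C1qa, C1qb, C1qc, Lyz2 and Cd52) left 79 of the 319 cells with the UMI. There Ccng1 alone of the members passed, with 0.446% of genes, and none of the 4 other targets did. Cd74, which the study follows in proximal tubule, is among the 7, so tubule cells with Cd74 RNA were also removed.

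**Figure D4:**
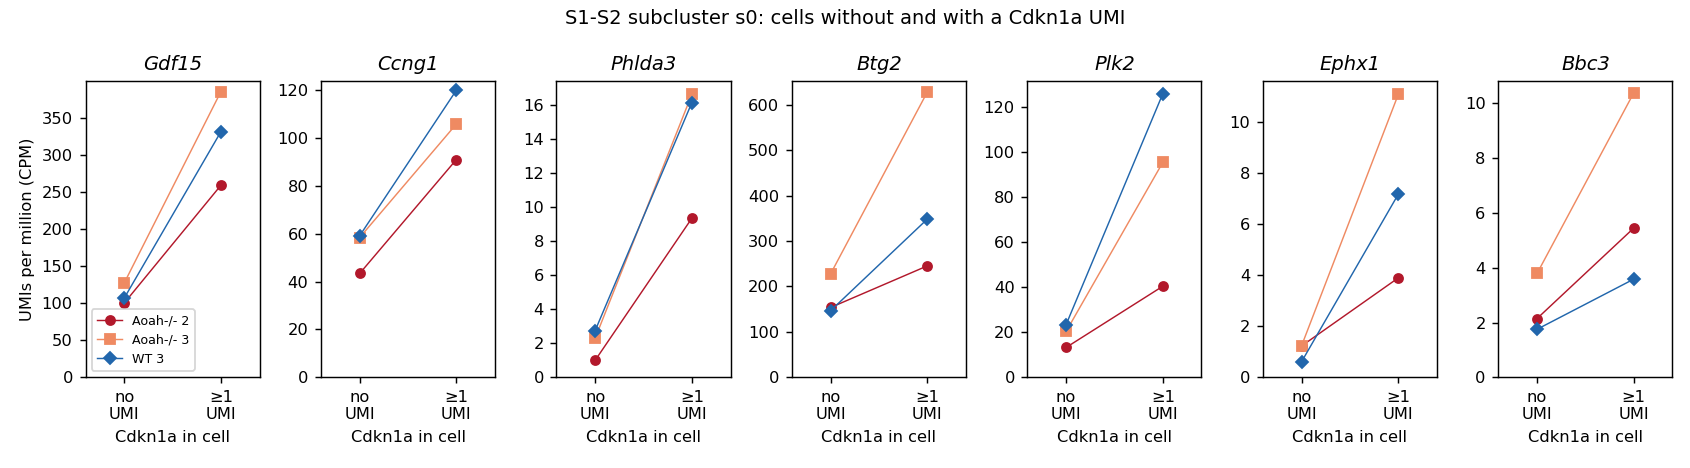
CPM (y axis, from 0, a separate scale per gene) of the 3 members and 4 other p53 targets past 1.5-fold in S1-S2 subcluster s0, in cells without and with at least 1 Cdkn1a UMI (x axis), with 1 line per library. Each of the 7 genes was higher in cells with the UMI in all 3 libraries.

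The calls varied with the cells. In s5, with 85, 41 and 25 cells holding a UMI, Gdf15 passed (40.2, 61.0 and 61.0 CPM against 17.4, 17.5 and 18.8 CPM), where 0.399% of genes were higher and 0.542% lower. The s5 cells with the UMI were much deeper, with medians of 15167, 22512 and 7522 against 2165, 5483 and 3945 UMIs. In S3 subcluster s1, Phlda3 alone of the members passed (7.43, 3.31 and 11.3 CPM against 1.32, 1.01 and 2.43 CPM), with 0.207% of genes higher and 0.339% lower. It had only 10, 4 and 14 UMIs in s1 cells with a Cdkn1a UMI and 12, 9 and 37 in those without. In Aoah-/- 3 it passed the filter of 10 UMIs only as the sum of both groups, so this call rests on few UMIs. Median depths there were 23451 to 24790 against 15637 to 18416 UMIs. In injured PT, Gdf15 passed (466, 247 and 416 CPM against 299, 128 and 270.5 CPM), with 1.03% of genes higher and 0.669% lower, together with Pmaip1, Plk2, Epha2 and Ephx1. Injured PT cells with the UMI had medians of 15906, 13674 and 17035 against 8911, 5948 and 6903 UMIs, and an immediate early sum of 16014, 14345 and 14313 against 11180, 11250 and 13094 CPM. Depth was not matched in any split, and only in s0 were cells under the median depth left out as an alternative. The part of the immediate early genes was not tested. Ephx1, an epoxide hydrolase gene, passed in all 4 splits, but at low levels in s0. There it was at 3.89, 11.1 and 7.17 CPM with and 1.225, 1.234 and 0.609 CPM without the UMI.

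Splitting injured PT by its injury markers gave a different order. Phlda3 was lower in cells with a Havcr1 UMI, at 9.20, 7.08 and 17.2 CPM against 52.2, 37.6 and 53.5 CPM, where 3.83% of genes were lower and 1.92% higher. It had only 8, 8 and 11 UMIs in these cells and 68, 85 and 51 in the others. In Aoah-/- 2 and Aoah-/- 3 it passed the filter of 10 UMIs only through the others. Phlda3 was also lower in cells with a Vcam1 UMI, at 30.5, 22.4 and 35.2 CPM against 60.0, 65.5 and 54.0 CPM, where 1.57% of genes were lower and 4.85% higher. The 5 injured PT cells with the most held 52.6%, 21.5% and 29.0% of the Phlda3 UMIs. Their part in these calls was not tested. Cdkn1a was at 119, 62.0 and 181 CPM with and 95.3, 80.9 and 176 CPM without a Havcr1 UMI, so the libraries lay on either side. Cells with a UMI of either marker were deeper in every library. Injured PT cells with a UMI of Mki67 or Top2a, genes of cycling cells, were 16 of 180, 61 of 341 and 5 of 123, or 8.89%, 17.9% and 4.07%. Cdkn1a was at 66.6, 64.3 and 241 CPM in them and 111, 77.2 and 172 CPM in the others, again on either side.

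Comparisons of Aoah-/- with WT rest on 1 WT library and carry no test. A gene was called where both Aoah-/- libraries lay past 1.5-fold of WT on the same side. Of 73 pairs of a member and a nephron class that passed a filter of 30 UMIs, 3 were called lower and 0 higher in Aoah-/-. The share of all genes called higher was 2.74% in PT S1-S2, 2.24% in PT S3, 4.7% in injured PT, 4.27% in the other injured tubule class, 7.26% in thick ascending limb, 4.39% in distal convoluted tubule, 3.07% and 4.83% in intercalated A and B and 2.87% in principal cells. The share called lower was 1.49%, 1.77%, 2.38%, 1.65%, 3.15%, 1.22%, 2.2%, 1.77% and 2.65% in the same order. With so few calls among the members and 1 WT library, nothing about the members is read from their number. Both Aoah-/- libraries lay below WT in 41 pairs, above it in 16 and on either side in 16. Over all 101257 pairs of a gene and a class, 41.3% lay below and 32.6% above.

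Cdkn1a in injured PT was the largest of the 3, at a mean of 89.6 CPM in Aoah-/- and 178 CPM in WT, a log2 ratio of -0.99 (SD 0.34 between the Aoah-/- libraries), where 2.38% of 10830 genes were called lower. In distal convoluted tubule it was at 21.8 and 36.8 against 58.2 CPM (-0.97, SD 0.52), where 1.22% of genes were. The 5 cells with the most UMIs held 42.2% of the WT distal convoluted tubule value, and without them in each library the levels were 14.6, 27.0 and 34.2 CPM, so Aoah-/- 3 was then within 1.5-fold. In PT S1-S2 it lay on the other side, at 0.63 (SD 0.47) and not called. There 1 cell held 109 of the 494 UMIs of Aoah-/- 3, and without the 5 cells with the most in each library the levels were 8.11 and 9.98 against 5.95 CPM. The injured tubule class (206 and 178 against 202 CPM) and intercalated B cells (115 and 115 against 121 CPM) showed no such gap. The thinned shares of injured PT cells with a Cdkn1a UMI had overlapping intervals in the 3 libraries, so a difference in the share of cells was not detectable at this depth.

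Gdf15 was called lower in intercalated B cells, at 21.1 and 21.6 against 40.1 CPM (-0.88, SD 0.02), where 1.77% of genes were. It lay below WT in both Aoah-/- libraries in 6 of 9 classes. The widest gap on the mean was in the injured tubule class, at 401 and 206 against 592 CPM (-0.96, SD 0.68), which missed 1.5-fold in Aoah-/- 2. Principal cells (261 and 261 against 386 CPM) and PT S3 (43.6 and 43.2 against 65.1 CPM) were closer. Mdm2 and Ccng1 each lay below WT in 8 of 9 classes, Phlda3 in 7 and Bax in 5, without reaching 1.5-fold in both libraries. For Mdm2 the values were 34.0 and 33.4 against 42.8 CPM in PT S1-S2 and 43.1 and 37.3 against 49.0 CPM in principal cells. Cells of s0 numbered 1428, 1136 and 2382 in Aoah-/- 2, Aoah-/- 3 and WT 3, and cells of s5 2505, 1277 and 995. Genotype values of PT S1-S2 also carry this mix, whose part was not tested. Mdm2 was at 48.7 and 47.8 against 50.3 CPM within s0 and 22.5 and 21.1 against 19.2 CPM within s5. Gdf15 was at 114 and 156 against 120 CPM and 19.0 and 19.8 against 20.3 CPM. Trp53, below WT in PT S1-S2, was above it within both. Injured PT was the exception for Mdm2, at 70.9 and 54.8 against 60.3 CPM, and intercalated A cells for Ccng1. Trp53 and Cdkn1b lay above WT in 5 of 9 classes each. Of 9024 genes that passed the filter in all 9 classes, 39.3% lay below WT in at least 5, 25.3% in at least 6, 13.8% in at least 7 and 6.16% in at least 8, and 20.5% lay above in at least 5. Since all classes of a library share that library, these counts are not independent.

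**Figure D5:**
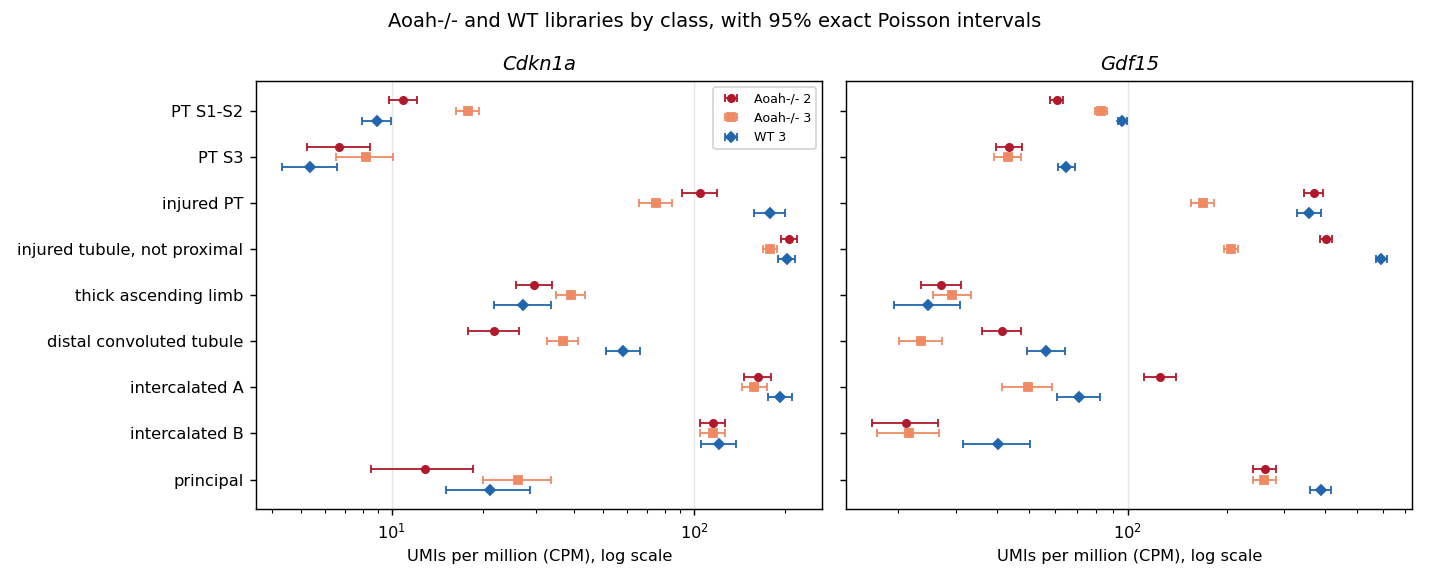
CPM (x axis, log scale) of Cdkn1a and Gdf15 in 9 nephron classes (y axis) in each library, with 95% exact Poisson intervals that cover counting error only. Cdkn1a in injured PT and distal convoluted tubule and Gdf15 in intercalated B cells were past 1.5-fold higher in WT than in both Aoah-/- libraries, and Gdf15 in the injured tubule class (592 against 401 and 206 CPM) was not past it in Aoah-/- 2.

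Among the other genes of the pathway, Fas (-0.63) and Btg3 (-0.98) were lower and Chek1 (1.69) higher in Aoah-/- injured PT. In PT S1-S2, Plk2 (-1.01) and Gadd45a (-0.81) were lower and Gadd45b (0.64) higher, where 1.49% and 2.74% of genes were called in those directions. In PT S3, Gadd45b (0.81), Gadd45g (0.97) and Cdkn2c (1.02) were higher, where 2.24% of genes were. In thick ascending limb, Btg2 (-0.99) was lower and Plk3 (1.33), Cdkn1c (1.16) and Cdkn2b (1.37) higher, where 3.15% and 7.26% of genes were. In the injured tubule class the kinase Atr (0.82) was higher and Cdkn1c (-0.98) lower. Btg2 was also lower in distal convoluted tubule (-0.69). Bbc3 (0.78) and Fas (1.29) were higher in intercalated A cells, and Aen (-1.02), Cdkn1c (-0.96) and Cdkn2b (-0.75) lower in intercalated B cells. In principal cells 3 of 20 other targets that passed the filter, Plk2 (-2.05), Btg2 (-0.65) and Pmaip1 (-0.64), were lower and 0 higher, where 2.65% of genes were lower.

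Other signals moved with genotype. The immediate early sum was 9876 and 8905 against 15704 CPM in thick ascending limb, 2832 and 2782 against 4018 CPM in distal convoluted tubule and 8172 and 8418 against 12369 CPM in principal cells. The sum of the 10 leukocyte genes was above WT in both Aoah-/- libraries in every nephron class but intercalated B (228 and 413 against 241 CPM). It was 373 and 639 against 146 CPM in thick ascending limb and 241 and 548 against 115 CPM in distal convoluted tubule. In injured PT it was 234 and 269 against 41.4 CPM, and in principal cells 193 and 498 against 81.1 CPM. The share of injured PT cells with a UMI of Mki67 or Top2a was 8.89% and 17.9% against 4.07%. The mix of s0 and s5 in PT S1-S2 differed as well. The part of these signals and of this mix in the genotype differences was not tested.

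Genes most like the members across the 21 classes, by Pearson r of log2 mean CPM over 10705 genes with at least 20 CPM in a class, are given as a description. Cdkn1a was most like Zfand2a (0.911), Marcks (0.91) and Itpripl2 (0.883). Phlda3 was most like Unc5b (0.91), Klhdc8b (0.903) and Samd4 (0.892). Gdf15 had the weakest likeness, to Nt5c2 (0.778), Cd63 (0.756) and Pax8 (0.756). For Trp53 they were Nono (0.93), Sarnp (0.93) and Nolc1 (0.928), and for Bax Tpm3-rs7 (0.936), Tpm3 (0.93) and Gnai2 (0.921). Mdm2 had Fam13b (0.87), Vps4b (0.861) and Atg2a (0.853), Ccng1 had Cox8a (0.854), Timm8b (0.848) and Mif (0.848), and Cdkn1b had Stag2 (0.933), Smchd1 (0.928) and Creb1 (0.922). The 21 points of each r share libraries and depth, and Cdkn2a was below the level needed.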

How the data were processed

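Per the file headers and the submitters' processing notes, the deposited counts are whole UMIs per gene and cell that the authors made with Cell Ranger from 10x Genomics 3′ libraries of digested kidney, on mm10. The notes name Cell Ranger 3.1.0 and the matrix headers 6.1.2. They also name STAR and Seurat 4.2.0. The lowest total per barcode was 500, 1672 and 500 UMIs in Aoah-/- 2, Aoah-/- 3 and WT 3.

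Barcodes with fewer than 200 genes, or with over 50% of UMIs from mitochondrial genes, were removed (16.3 to 21.1% of each library). The 3 libraries were clustered together (scanpy 1.11.5, 2000 variable genes, 50 components, 15 neighbours, Leiden resolution 1, and 0.5 within proximal tubule), without the members and lists, into 38 clusters and 9 proximal subclusters. Names came from fixed markers. The naming rule, and its change that left proximal subcluster s2 (4339 cells) unnamed, were written after clusters and member levels had been seen. In all, 10440 proximal cells had no segment and 5757 cells no name. Doublets were kept. Scrublet called 544, 0 and 201 cells, and its threshold did not work in Aoah-/- 3.

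UMIs were summed per class and library and scaled to 1000000 (CPM). Ratios are log2 of CPM + 1, which understates changes of low genes. A gene was called where it was past 1.5-fold in every library (within libraries, at least 10 UMIs a library in both classes together) or in both Aoah-/- libraries against WT (at least 30 UMIs in all). With 1 WT library there is no test and no p-value, and cells are not replicates. Intervals are exact Poisson or Clopper-Pearson at 95%. The calling code was checked on simulated counts with a small set spread between libraries, which gives no error rate for these data. Named genes were all members, list genes past 1.5-fold (at most 8 a list between classes and 4 between genotypes) and the 3 genes most like each member. Members and lists were chosen with earlier results of these data known, and the immediate early and leukocyte lists and the splits by a UMI after seeing the data. No protein sequences were used here.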

Additional observations from a re-analysis of the deposited data

How the results depend on the processing

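Each alternative changed 1 choice. The Cdkn1a log2 ratio of injured PT to PT S1-S2 stayed between 2.46 (pseudocount of 10 CPM) and 3.87 (without S1-S2 subcluster s0, added after seeing the data), and between 2.58 and 3.66 when 1 library was left out. The Cdkn1a ratio of Aoah-/- to WT in injured PT stayed between -0.706 (without the 10% highest doublet scores) and -1.03. It was -1.25 and -0.764 without 1 Aoah-/- library. Without the 10% highest doublet scores, injured PT had 106, 253 and 136 Cdkn1a UMIs, against 227, 253 and 284 with all cells. Counts are in the order Aoah-/- 2, Aoah-/- 3 and WT 3. In PT S1-S2 the Cdkn1a ratio of Aoah-/- to WT was 0.921 and 0.262 without 1 Aoah-/- library, and it turned to -0.657 without cells with immune RNA. Cells with immune RNA were those with any UMI of the 7 immune genes, Cd74 among them. The number of members past 1.5-fold in injured PT was 5, 4 to 7 under most alternatives and 5 to 6 without 1 library, but 3 without cells with immune RNA. That setting left 23, 30 and 32 injured PT cells with 8, 3 and 13 Cdkn1a UMIs, so the Cdkn1a ratios there rest on few UMIs. The Gdf15 ratio turned to -1.74 there, with 0, 7 and 16 UMIs. The number of members past 1.5-fold in s0 cells with a Cdkn1a UMI was 3, with 0.12% of genes, and 1 in that setting, with 0.446%. In injured PT, 29.3% of genes were past 1.5-fold higher with all cells, and 43.7% without s0, where the number of members was 7. Phlda3, among these 7, passed the filter in WT only through injured PT. For the other alternatives in injured PT the share of all genes was not taken, so the numbers alone do not show that the members were stable. All changes of cell set here leave fewer cells, and no other cause was tested.

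Genes past the fold between genotypes in injured PT numbered 509 higher and 258 lower, 1108 and 912 with no filter, 34 and 44 with 10 times the filter, and 173 and 60 at a fold of 2. Between injured PT and PT S1-S2, a fold of 2 left 2211 higher and 439 lower of 3792 and 920. Clustering each library alone gave no class that met the rule for injured PT, so it has no value for those results. No paired analysis was possible because the groups share only replicate number 3. Depth limits the low genes most: Cdkn2a had at most 27 UMIs in a nephron class and library.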
